A study of Mus musculus with 22 samples.

Results

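Bladders of Trp53 heterozygous mice that had drunk the carcinogen N-butyl-N-(4-hydroxybutyl)nitrosamine (BBN) were compared with normal bladders, gene by gene. The members are 6 one-colour Agilent arrays of 22 in the series, chosen by their labels: 3 titled as heterozygous and 3 titled as normal urothelium, with 1 bladder RNA sample on each. The heterozygous mice, called Trp53 het below, have Trp53+/- in their titles and Trp53R270H/+ as genotype. They carried no Cre recombinase, received no tamoxifen, drank BBN for 24 weeks from 2 to 8 months of age and have the tissue label bladder tumor. The normal mice were wild type, had neither BBN nor tamoxifen and were also 8 months old. Genotype and BBN therefore changed together, and this comparison cannot tell them apart. The other 16 arrays, which also enter the estimate of the spread behind every test, all came from BBN-treated mice with tamoxifen and a Krt5-Cre or Upk2-Cre driver, with or without a Trp53 R270H or R172H allele. Nothing in the labels names separate cages or litters, so p-values measure the spread between these arrays.

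Several facts about the arrays stand beside every result. Het 1 and het 2 share an animal code in the labels, while het 3 has another, and het 1 was read on another slide and scanner than het 2 and het 3. The 3 normal arrays lay alone on their slide, on a scanner of the model that read het 1. The slide therefore also changed with genotype and BBN, and its part cannot be told apart from theirs. The het arrays are labelled male and the normal arrays female. On all 3 normal arrays, however, Y-linked Ddx3y, Eif2s3y, Kdm5d and Uty were well above background and Xist was not. On het 3 Xist was well above background and those 4 Y-linked genes were not, so 4 of the 6 arrays went against their sex label. Although the normals carry a urothelium label, the protocol extracts RNA from whole bladders. Genes of smooth muscle (Acta2 at 5.60, 4.86 and 4.73) and fibroblasts (Dcn at 7.14, 7.38 and 7.13, both picked after their values were seen) were well above background on all 3 normal arrays, as the uroplakins were. Both genes stood far above their lists. On the normals the 14 smooth muscle genes, 13 of them well above background, had mean levels of 0.60, 0.81 and -0.08. The 15 fibroblast genes averaged 2.66, 3.11 and 2.60. Whether the normal samples were whole bladder or urothelium was not tested. If only the normals were urothelium, tissue changed with genotype and BBN too and cannot be told apart from them.

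Levels are log2 processed signal minus the 75th percentile of the same array, and a difference is the het mean minus the normal mean on that log2 scale, so that 1 unit is a doubling. Between 47.0% and 63.2% of spots were well above background on the het arrays and between 56.3% and 61.8% on the normal arrays. The dimmest measurable level was -5.72 on het 1, -3.16 on het 2, -3.76 on het 3 and between -5.64 and -5.13 on the normal arrays. A gene that is dim on het 2 and het 3 can thus sit above a normal array only because of this floor. Where a gene was not well above background on any array of the dimmer group, the ratio is given as "at least N-fold", taken against the floor. Probes of close relatives (Krt6a and Krt6b, the Sprr2 genes, the adult beta globins, the Stfa, Gstm, Oas and Prl2c families) can bind each other's transcripts, so how their signal divides between relatives is uncertain.

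The urothelium that lines the bladder has basal cells, which express keratins 5 and 14 and renew the layer, intermediate cells, and large luminal umbrella cells, whose surface is covered by plaques of uroplakins. BBN is turned into a metabolite that reaches the bladder with the urine, alkylates DNA there and causes carcinoma in mice, often with squamous features, in which the epithelium makes keratins and envelope proteins of skin. The p53 protein halts the cell cycle or starts cell death after DNA damage, and loss of its function is common in invasive bladder cancer.

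Nearly 1 gene in 3 separated the groups. Of 17407 genes tested, 5401 (31.0%) had a limma p of at most 0.05 after Benjamini-Hochberg adjustment, which is what a call means below. In the het bladders 3052 genes (17.5%) were higher and 2349 (13.5%) were lower, and 2763 and 2037 of them differed by at least 2-fold. All 3 het arrays lay above all 3 normal arrays for 5566 genes (32.0%) and below them for 4490 (25.8%). The median difference over all genes was 0.18. The balance of directions rests on the scaling: with quantile normalization the median was -0.01 and 2343 genes were called higher and 2724 lower. The same fit on the authors' deposited normalized table gave 2043 and 2373, and the scanner as a block gave 1744 and 1822. Of the genes called higher, 2403 were well above background on all 3 het arrays and 59 on none of the 6 arrays, so the last have no measured level. Of those called lower, all 2349 were well above background on the 3 normal arrays and 182 on no het array. Counts in the gene lists below are to be read against these shares: those of p53 targets, p53 regulators, antigen presentation, lymphocyte, smooth muscle, endothelial, nerve, adipocyte, retinoid and epithelial-mesenchymal genes lay near or below 31.0% and say nothing particular about those lists.

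**Figure D1:**
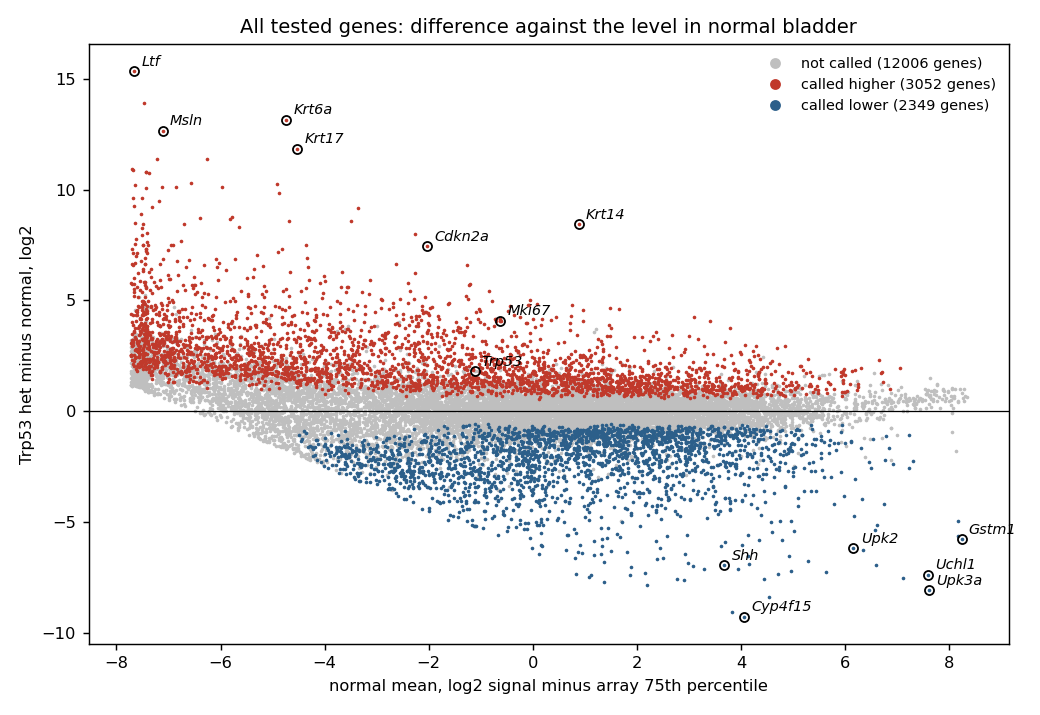
Each point is 1 of 17407 genes, with its mean level on the 3 normal arrays on the horizontal axis and the difference between Trp53 het and normal bladders on the vertical axis, both in log2 units. Red and blue points are the 3052 genes called higher and the 2349 called lower by limma (adjusted p at or under 0.05), and the slanted lower edge is the floor of the het arrays.

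**Figure D2:**
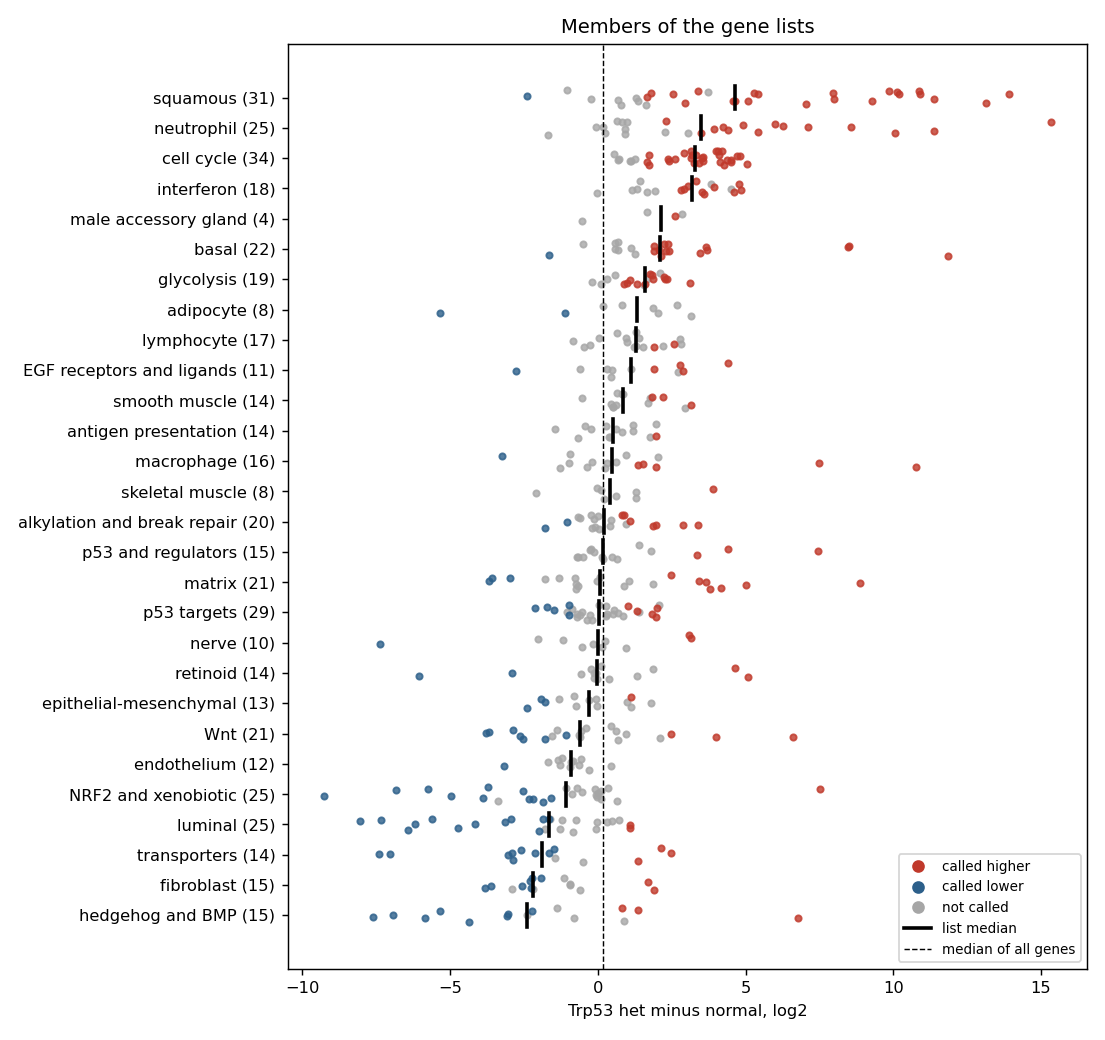
Points are the differences (log2) of the tested members of 28 gene lists, sorted by list median, with the number of members in parentheses, black bars at the medians and a dashed line at the median of all genes (0.18). Squamous genes have the highest median (4.63) and hedgehog and BMP genes the lowest (-2.40).

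Trp53 RNA itself was not called. Its levels were -0.42, 1.62 and 0.84 on the het arrays and -1.05, -1.08 and -1.23 on the normal arrays. Every het array lay above the normals, and the difference was 1.80 (SE 0.67, adjusted p = 0.0514), with 1.33 (adjusted p = 0.215) when het 2 was left out and 2.35 (adjusted p = 0.0201) when het 1 was left out. The files do not say which part of the transcript the probe covers, so it does not check the allele. Cdkn1a, the p53-induced inhibitor of cyclin-dependent kinases, stood at 1.32, 2.90 and 1.98 against 0.42, 1.13 and 0.47 and missed the threshold too (difference 1.39, adjusted p = 0.0776). Its other probe gave a smaller difference of 0.54.

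Among 29 genes that p53 is known to induce, 5 were called higher and 5 lower, near the 17.5% and 13.5% of all genes, with a median of 0.02. Phlda3, which restrains AKT, rose from 4.32, 4.80 and 4.36 to 5.78, 6.67 and 7.0 (difference 1.99, SE 0.37, adjusted p = 0.00106). Gadd45a, a stress sensor in repair and arrest, fell by 1.72 (adjusted p = 0.00467). Ei24, a protein of the endoplasmic reticulum with a role in autophagy, fell by 0.98 (adjusted p = 0.00918). For Pidd1, which builds a death complex, the difference was 1.34 (adjusted p = 0.00834), but a further probe gave 0.0079. The counts moved with the arrays: without normal 1, 2 members were called higher and 4 lower. The other calls were Bbc3, Pmaip1 and Ddit4, higher by 1.03 to 1.95, and Ccng1, Polk and Trp53i11, lower with differences of -2.12 to -0.97, all 6 picked after their values were seen. Mdm2, the ubiquitin ligase that p53 induces and that degrades p53 (picked after its values were seen), read 3.17, 2.94 and 3.23 against 3.29, 3.49 and 3.36, a difference of -0.27 (adjusted p = 0.453).

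Of 15 genes for p53, its relatives, regulators and cell cycle inhibitors, 3 were called higher and none lower. Cdkn2a encodes p16INK4a, which blocks CDK4 and CDK6, and p19ARF, which blocks Mdm2. It went from -1.59, -2.17 and -2.35 on the normal arrays to 4.88, 6.34 and 5.0 on the het arrays. The groups were far apart and the difference was 7.44 (SE 0.52, adjusted p = 1.87e-07), with 8.28 from its other probe. Trp73, a p53 relative, read -1.12, -0.25 and -0.96 against -5.49, -5.09 and -5.0, well above background on 1 normal array only (difference 4.42, adjusted p = 0.000208; other probes 2.08 to 2.93). Chek1, the kinase that holds cells with unfinished replication, differed by 3.36 (adjusted p = 0.000544), and its other probe by 1.20.

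Luminal genes that were called were mostly lower. Of 25 luminal and umbrella cell genes, 12 were called lower and 2 higher, with a median of -1.64. Upk3a, a uroplakin of the umbrella cell plaque, stood at 7.52, 7.90 and 7.41 on the normal arrays and at 1.68, -4.20 and 1.16 on the het arrays. It was not well above background on het 2 and lay far below the normals on the others (difference -8.06, SE 1.88, adjusted p = 0.00469). Upk2, its plaque partner, went from 6.18, 6.47 and 5.83 to -0.20, 0.86 and -0.73. All 3 het arrays lay far below the normals, and the difference was -6.18 (adjusted p = 0.000145). Upk1a fell from 8.12, 8.34 and 8.01 to 4.94, 1.26 and 1.42, and het 1 kept clearly more of it than het 2 and het 3 (difference -5.62, adjusted p = 0.000537). Snx31, a sorting protein that binds uroplakins, was not well above background on any het array and was at least 32.8-fold lower (adjusted p = 2.43e-05). Rab27b, which moves uroplakin vesicles to the surface, fell by 3.15 (adjusted p = 0.000542).

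Not all luminal genes moved with the plaque. The transcription factors Pparg (difference -2.95, adjusted p = 0.00485) and Foxa1 (-1.99, adjusted p = 0.00551) were lower, while Klf5 (1.07, adjusted p = 0.0106) and Elf3 (1.09, adjusted p = 0.026) were higher. These 4 were picked after their values were seen, as was Krt20, the umbrella cell keratin, at 1.44, 3.95 and 5.05 on the het arrays and 4.64, 5.08 and 4.55 on the normals. It was lowest on het 1, het 2 also lay below the normals, and it was not called (adjusted p = 0.268). Elf3 lost its call without normal 1, normal 3, het 1 or het 2 and was called in 11 of 21 settings. Upk1b, another plaque uroplakin picked in the same way, read 3.65, 2.77 and 1.34 against 6.81, 6.90 and 6.55 (difference -4.17, adjusted p = 0.00481). In RNA from tissue of mixed cells, fewer cells of a type and less RNA per cell cannot be told apart.

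**Figure D3:**
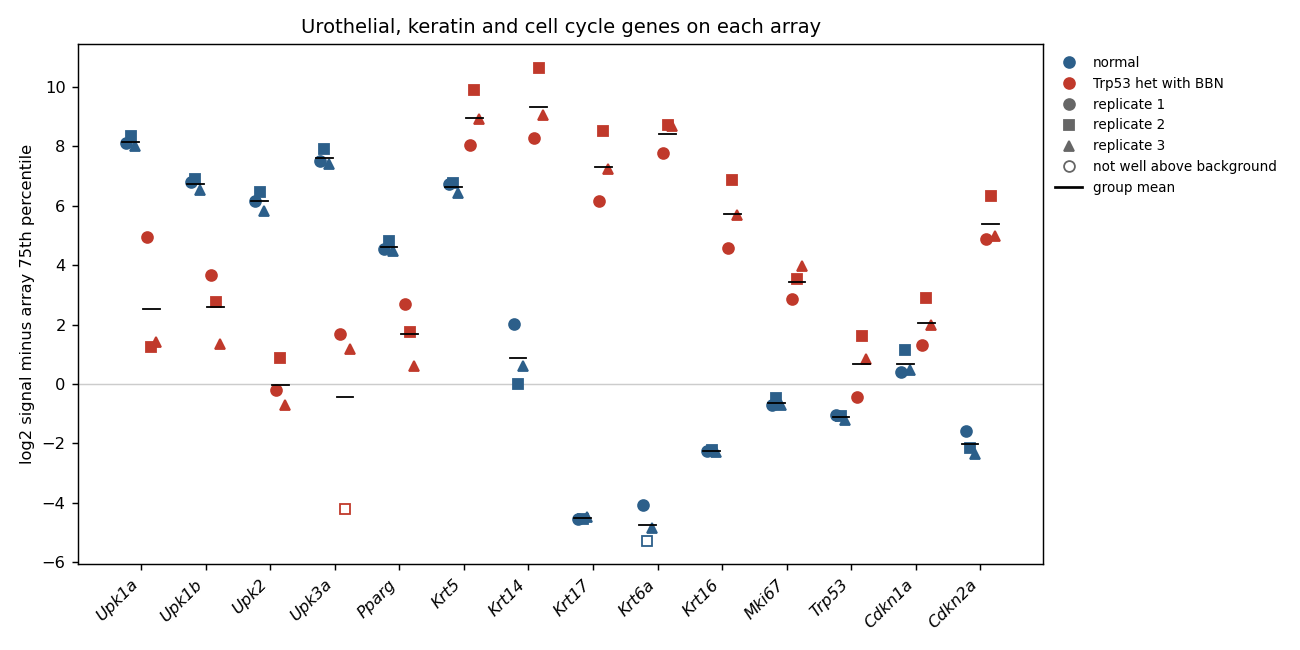
Each symbol is the level of a gene on 1 array, in log2 signal minus the array's 75th percentile, with normal bladders in blue, Trp53 het bladders in red, a symbol shape for each replicate number, hollow symbols where the spot was not well above background and a black bar at each group mean. Uroplakins and Pparg lie lower on all 3 het arrays, and the basal and stress keratins, Mki67 and Cdkn2a lie higher on all 3.

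Most basal genes rose, with 14 of 22 called higher, 1 lower and a median of 2.09. Krt5 stood at 6.74, 6.77 and 6.42 in normal bladder and reached 8.04, 9.91 and 8.94 (difference 2.32, SE 0.47, adjusted p = 0.00189). Its partner Krt14 climbed from 2.03, 0.0016 and 0.61 to 8.28, 10.66 and 9.05, a difference of 8.45 (adjusted p = 7.16e-07). Krt17, a keratin of wounded and hyperproliferative epithelium, went from -4.56, -4.54 and -4.49 to 6.15, 8.53 and 7.24 (difference 11.84, adjusted p = 5.83e-08). For each of these 3 keratins het 2 was the highest array and het 1 the lowest. Dsg3, a desmosomal cadherin of lower epidermal layers, was not well above background in the normals and at least 75.3-fold higher (adjusted p = 8.12e-07). Col17a1, the hemidesmosome collagen, differed by 3.67 (adjusted p = 0.000521), and a further probe by 3.46.

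The rise was not shared by every basal gene. Trp63, the master regulator of basal epithelium (picked after its values were seen), read 3.19, 3.19 and 3.56 on the het arrays against 3.82, 4.03 and 3.63 on the normals. The probe lay slightly lower on all 3 het arrays and was not called (difference -0.51, adjusted p = 0.357), while its other probe differed by 0.76. The called decrease was Aqp3, a water channel (difference -1.66, adjusted p = 0.0212), whose call was lost without normal 1, normal 2 or het 2.

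Stress keratins and cornified envelope genes had the highest median of the 28 lists, 4.63, with 22 of 31 called higher and 1 lower. Krt6a, induced in wounded epithelium, read -4.08, -5.28 and -4.86 on the normals, 2 of them well above background, and 7.80, 8.72 and 8.70 on the het arrays. The difference was 13.15 (SE 0.81, adjusted p = 5.83e-08), and its near-identical relative Krt6b was at least 3683-fold higher (adjusted p = 1.6e-05). Lgals7, a galectin of stratified epithelium, was at least 749-fold higher. Krt16, the partner of the keratin 6 proteins (picked after its values were seen), read 4.58, 6.88 and 5.70 against -2.25, -2.24 and -2.31 (difference 7.99, adjusted p = 0.000473). Calml3, a calmodulin relative of differentiating keratinocytes, differed by 9.86 (adjusted p = 5.74e-06). Sprr2d, a small proline-rich envelope protein, read 3.54, 3.56 and 2.52 on the het arrays and at least 387-fold less on the normals. Calm4, a calcium-binding skin protein, was at least 383-fold higher. The called decrease was Ivl, encoding involucrin, the scaffold of the envelope (picked after its values were seen), which read 2.06, 1.11 and 0.48 against 4.05, 3.32 and 3.42 (difference -2.39, adjusted p = 0.0271). The het arrays lay below the normals, but the call was lost when any array except het 1 was left out. Sprr1a, picked in the same way, was 6.40, 5.38 and 6.03 against 7.07, 7.05 and 6.87 and not called (adjusted p = 0.184). So Sprr2d was not measurable in normal bladder, while Ivl and Sprr1a, other envelope genes of the same chromosome, were well above background on all 6 arrays.

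Promoters of these genes are shown because members with opposite differences share a motif. They are the 250 bases before the RefSeq start (GRCm38.p6), 5′ to 3′ on the gene's strand, with matches to TGANTCA, the site of the stress factor AP-1, in capitals. The motif reads the same on both strands. Sprr2d lies at chr3:92338890-92339139 (plus strand), Sprr2h at chr3:92385435-92385684 (plus), Sprr1b at chr3:92438780-92439029 (minus) and Ivl at chr3:92573736-92573985 (minus).
Sprr2d: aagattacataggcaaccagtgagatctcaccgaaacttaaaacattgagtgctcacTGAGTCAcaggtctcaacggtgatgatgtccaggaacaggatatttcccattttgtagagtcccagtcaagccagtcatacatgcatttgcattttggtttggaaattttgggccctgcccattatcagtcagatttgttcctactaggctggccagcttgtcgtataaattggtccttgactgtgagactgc
Sprr2h: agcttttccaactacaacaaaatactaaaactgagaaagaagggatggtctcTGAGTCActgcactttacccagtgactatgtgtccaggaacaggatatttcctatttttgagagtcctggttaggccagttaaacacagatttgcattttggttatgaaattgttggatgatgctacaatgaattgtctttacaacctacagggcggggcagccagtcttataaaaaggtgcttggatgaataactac
Sprr1b: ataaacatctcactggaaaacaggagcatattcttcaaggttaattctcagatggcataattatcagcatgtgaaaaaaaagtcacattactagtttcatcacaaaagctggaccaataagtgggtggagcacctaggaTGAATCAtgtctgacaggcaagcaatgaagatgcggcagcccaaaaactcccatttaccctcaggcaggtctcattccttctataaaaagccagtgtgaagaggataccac
Ivl: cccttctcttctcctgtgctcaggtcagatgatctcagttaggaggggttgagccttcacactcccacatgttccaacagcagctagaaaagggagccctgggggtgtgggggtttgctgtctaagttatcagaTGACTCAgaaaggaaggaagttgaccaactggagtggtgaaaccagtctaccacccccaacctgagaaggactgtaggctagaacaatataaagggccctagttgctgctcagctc
Of the 31 tested squamous genes 21 had a promoter in the table, with 23 promoters, and 12 of those (52.2%) held TGANTCA, against 6.75% of all 32851 promoters. Several squamous promoters belong to related neighbouring genes and are not independent. Sprr2h and Sprr1b (both picked after their values were seen) were at least 56.5-fold and at least 248-fold higher, whereas Ivl, with another match to the same pattern, was lower. A match describes these letters in this window, and binding was not measured.

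Proliferation genes rose with few exceptions. Of 34 mitosis and replication genes, 28 were called higher and none lower, and the median was 3.29. All 34 had their 3 het arrays above the 3 normals, as 32.0% of all genes did. Ube2c, which loads ubiquitin for the anaphase-promoting complex, went from -2.99, -2.77 and -3.02 to 1.20, 2.55 and 2.63 (difference 5.05, SE 0.50, adjusted p = 5.77e-06). Mki67, the Ki-67 antigen of cycling cells, went from -0.70, -0.47 and -0.73 to 2.85, 3.54 and 3.96 (difference 4.08, adjusted p = 3.05e-05). Het 1 was the lowest het array for both. Birc5 (survivin) differed by 4.51 and the mitotic kinase gene Plk1 by 4.36. Members that were not called included Pcna, the replication clamp (0.67, adjusted p = 0.211), and Ccnd1, cyclin D1 (1.12, adjusted p = 0.0666), both picked after their values were seen.

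Many genes of mitosis share CCAAT boxes, bound by NF-Y, and some the cell cycle homology region TTTGAA, so promoters of 3 members that rose together are shown in the same way. Capitals mark both motifs, each on either strand, and none of one overlaps any of the other. Plk1 lies at chr7:122159185-122159434 (plus strand), Ube2c at chr2:164769679-164769928 (plus) and Ccnb1, cyclin B1, at chr13:100786487-100786736 (minus).
Plk1: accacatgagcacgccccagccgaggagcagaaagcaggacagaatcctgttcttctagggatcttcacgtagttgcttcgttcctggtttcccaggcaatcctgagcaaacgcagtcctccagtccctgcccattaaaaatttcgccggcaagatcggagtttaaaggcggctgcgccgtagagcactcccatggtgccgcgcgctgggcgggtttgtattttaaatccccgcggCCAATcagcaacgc
Ube2c: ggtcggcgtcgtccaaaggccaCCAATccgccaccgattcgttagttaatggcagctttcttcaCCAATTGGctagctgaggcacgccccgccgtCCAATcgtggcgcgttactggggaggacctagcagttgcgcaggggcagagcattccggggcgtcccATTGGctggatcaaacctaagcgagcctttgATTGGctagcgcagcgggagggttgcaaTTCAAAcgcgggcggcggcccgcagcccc
Ccnb1: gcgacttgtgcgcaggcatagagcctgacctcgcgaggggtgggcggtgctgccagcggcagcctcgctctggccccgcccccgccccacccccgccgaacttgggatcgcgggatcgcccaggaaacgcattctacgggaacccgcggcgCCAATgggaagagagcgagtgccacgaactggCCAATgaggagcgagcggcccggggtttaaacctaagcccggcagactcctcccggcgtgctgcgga
The stretches hold 1, 6 and 2 CCAAT matches, of which 2 in Ube2c overlap each other, and that of Ube2c also holds 1 TTTGAA match. Of the 34 genes 28 had a promoter in the table, and 21 of these 28 (75%) held CCAAT, against 33.8% of all promoters. TTTGAA was in 8 (28.6%), against 16% of all. Ccnb1, picked after its values were seen, differed by 4.80 (adjusted p = 6.91e-05).

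Of 20 genes for repair of alkylated bases and DNA breaks, 7 were called higher and 2 lower (17.5% and 13.5% over all genes), with a median of 0.22. Brca2, of break repair by homologous recombination, read -1.04, 1.11 and 0.69 on the het arrays and -2.41, -2.81 and -2.64 on the normals. It differed by 2.87 (adjusted p = 0.00202; other probes 0.83 to 1.87) and Brca1, of the same pathway, by 1.95 (adjusted p = 0.00707). Apex1, the endonuclease of base excision repair, differed by 1.1 (adjusted p = 0.00676), and its other probes gave -0.12 to 1.14. The calls that went down were Polb, the base excision polymerase (-1.03, adjusted p = 0.0242), and Fancd2, of crosslink repair (-1.79, adjusted p = 0.00797), above background on 1 het array. Mgmt, which removes alkyl groups from guanine directly (picked after its values were seen, as Polb and Fancd2 were), stood at 3.41, 2.23 and 2.42 against 0.65, 1.24 and 0.55. It was highest on het 1, and its call (difference 1.87, adjusted p = 0.0128) was lost without that array. Mpg, Alkbh3 and Ogg1, which act on damaged bases and were picked in the same way, had differences between -0.14 and 0.40 and were not called.

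Inflammatory genes of the neutrophil list were higher: 14 of 25 called, none lower, median 3.48. Ltf, encoding lactoferrin, an iron-binding protein of neutrophil granules and of glandular epithelium, had the largest estimated log2 increase of all genes. It read 7.49, 8.59 and 6.97 on the het arrays and was not well above background on the normals, so it was at least 8638-fold higher (SE of the log2 difference 1.14, adjusted p = 4.58e-07). Its rank rests on normal readings below the dimmest measurable level. Stfa1, a cysteine protease inhibitor, was at least 1461-fold higher and the neutrophil attractant Cxcl5 at least 262-fold higher. S100a9, a calprotectin subunit, went from -2.89, -3.47 and -4.12 to 5.25, 3.55 and 6.46 (difference 8.58, adjusted p = 0.000189). Some genes that mark neutrophils more strictly were not called. Csf3r, the G-CSF receptor, read 5.55, 6.86 and 5.64 against 6.04, 5.21 and 6.26, Elane, Camp and Mpo of the granules missed the threshold, and Ngp was well above background on none of the 6 arrays (these 5 picked after their values were seen). The summed level of the list ran from 8.36 to 9.11 on the het arrays and from 5.34 to 6.32 on the normals. How far a larger number of neutrophils enters these differences was not tested.

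Interferon response genes rose in 10 of 18 cases and none fell, with a median of 3.18. Oas1a, an antiviral oligoadenylate synthetase, went from 0.10, 0.38 and -0.25 to 4.64, 3.97 and 6.18 (difference 4.85, adjusted p = 5.79e-05). Oasl1 differed by 4.60 (adjusted p = 1.73e-05), Isg15, a ubiquitin-like modifier, by 4.79 (adjusted p = 0.000497) and the transcription factor gene Irf7 by 3.59 (adjusted p = 0.000437). Het 3 was the highest array for all 4 genes. Without het 3, 6 members were called. In the antigen presentation list 1 of 14 was called, Tapbp, the chaperone of class I loading (difference 1.98, adjusted p = 0.00313; other probe 0.50).

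Lymphocyte genes gave 2 calls of 17, both higher, with a median of 1.28 (0.57 with quantile normalization). Only 9 of the 17 were well above background on het 2 and on het 3, and 11 or 12 on the normals. The higher floor of het 2 and het 3 thus enters this median. Cd3e, a T cell receptor subunit, read -0.25, 3.07 and 1.40 against -1.39, -0.80 and -1.33 and differed by 2.58 (adjusted p = 0.0301; other probe 0.81). Its call was lost when any normal array, het 2 or het 3 was left out (largest adjusted p = 0.167, without het 2). Foxp3, the regulatory T cell factor, read -3.95, -3.55 and -3.65 against -5.71, -5.46 and -5.64 and was above background on 2 het arrays and no normal array. It lay at or near the dimmest measurable level on het 2 and het 3, so no fold is given for its call (adjusted p = 0.000834). Among genes picked after their values were seen, Cd79a, of B cells, was well above background on none of the 6 arrays, and Ms4a1, of B cells, and Cd8a, of cytotoxic T cells, on 1 het array and no normal array. The list's summed level was 2.49 to 4.11 on the het arrays and 1.40 to 1.92 on the normals.

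Macrophage genes gave 5 calls higher and 1 lower of 16 (17.5% and 13.5% over all genes), median 0.46. The higher count was 3 without normal 1, normal 3 or het 3, and the lower call was lost without normal 2, normal 3, het 2 or het 3. Arg1, the arginase of alternatively activated macrophages and myeloid suppressor cells, was at least 427-fold higher (adjusted p = 4.11e-06), and its 3 het arrays were close together (3.83, 3.09 and 3.11). Spp1, osteopontin, went from -4.45, -4.26 and -4.39 to 4.32, 2.32 and 2.73 (difference 7.49, adjusted p = 7.32e-05). Itgax (CD11c) differed by 1.97 (adjusted p = 0.00607; other probe 1.21) and Cd68, of the lysosome, by 1.36 (adjusted p = 0.0201), whose call was lost without normal 1, normal 3 or het 3, with the arrays of the shared animal code averaged, with the scanner or the slide as a block and with labelled sex as a covariate. C1qc, of complement (1.51, adjusted p = 0.0355), was the other call upward and Cd163, a scavenger receptor of resident macrophages, the call downward (-3.24, adjusted p = 0.0226), above background on 1 het array. Defining genes such as Csf1r (3.23, 2.24 and 3.43 against 2.97, 3.67 and 2.91) and Adgre1 (0.11, -0.84 and 0.035 against -0.03, 0.56 and -0.15, picked after their values were seen, as C1qc and Cd163 were) overlapped between the groups.

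The supporting tissue changed unevenly. Fibroblast genes were lower in 7 of 15 cases and higher in 2, with a median of -2.19 and a summed level of 6.34 to 7.82 against 9.19 to 9.58 on the normals. Pi16, of resting adventitial fibroblasts, fell from 5.76, 6.46 and 5.70 to 3.24, 1.16 and 2.01 (difference -3.84, adjusted p = 0.00229). Gsn, gelsolin, which severs actin, fell from 7.25, 7.57 and 7.09 to 5.19, 5.09 and 4.94 (difference -2.23, adjusted p = 1.89e-05). Pdgfra, the PDGF receptor of fibroblasts, fell by 3.62 (adjusted p = 0.00448), above background on 2 het arrays. Fap, of activated fibroblasts, rose instead, from -2.93, -2.72 and -2.54 to -0.97, -1.21 and -0.88 (difference 1.71, adjusted p = 0.00361; other probe 1.07), as did Postn, periostin (1.91, adjusted p = 0.0231; picked after its values were seen). Het 2 was the lowest array for Pi16 and Pdgfra. The lower count was 3 without het 2 and 4 without normal 1 or normal 2.

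Matrix genes were called higher in 7 of 21 cases and lower in 3 (17.5% and 13.5% over all genes), with a median of 0.06. The lower count was thus near the share of all genes. Col7a1, the anchoring fibril collagen made by keratinocytes, rose from 0.055, -0.43 and 0.19 to 4.18, 6.47 and 4.19 (difference 5.01, adjusted p = 1.14e-05). Mmp7, an epithelial matrix protease, was at least 107-fold higher, and Timp1, a protease inhibitor, differed by 3.42 (adjusted p = 0.00196). Col6a3, a collagen of the stroma, fell by 3.67 (adjusted p = 0.000692; other probe -1.19), and the other lower calls were Col14a1 (-2.99), a fibril-associated collagen, and Mmp2 (-3.57), a gelatinase, both picked after their values were seen.

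Of 14 smooth muscle genes, 3 were called higher, near the share of all genes (17.5%), and none lower, with a median of 0.85. Cnn1, calponin of the contractile apparatus, read 5.39, 5.13 and 5.71 against 2.14, 3.78 and 0.85 (difference 3.15, adjusted p = 0.0111; other probe 1.87). The normals scattered widely for it, and its call was lost without normal 3. Tagln (difference 1.82) and Myocd (2.20) were called in 9 of 21 and 5 of 19 settings, and without normal 3 no member was called. The summed level was 7.74 to 8.08 on the het arrays and 6.19 to 7.02 on the normals. The amount of muscle in each sample was not measured otherwise.

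Markers of other tissues gave few calls. Of 12 endothelial genes, 1 was called lower, Tek, the angiopoietin receptor (difference -3.17), which lost its call in 5 of 6 fits that left out an array. In the nerve list Uchl1 fell from 7.37, 7.94 and 7.44 to 0.75, -0.50 and 0.38 (difference -7.38, SE 0.38, adjusted p = 1.26e-08, the smallest of the whole comparison). Uchl1 is a ubiquitin hydrolase abundant in neurons, while Ncam1 (3.14, other probes 1.08 to 2.60) and Tubb3 (3.08), also of neurons, were higher, and the Schwann cell genes Mbp and Sox10 were not called. Fabp4, a fatty acid carrier of adipocytes and capillaries, fell from 6.65, 6.84 and 6.22 to 2.15, 1.05 and 0.48 (difference -5.34, adjusted p = 0.00471), and Pnpla2, a lipase, by 1.12, although the defining adipocyte gene Plin1 was not well above background on any of the 6 arrays. Of 8 skeletal muscle genes 1 was called, Ckm, and of 4 gland genes Svs2, and each was well above background on 1 het array only. Ckm, Svs2, Tubb3 and Pnpla2 lost their calls in some fits that left out an array, up to adjusted p = 0.0585, 0.121, 0.0757 and 0.0916. The summed level of the nerve list was 4.33 to 5.40 on the het arrays and 7.54 to 8.06 on the normals. That of the adipocyte list was 2.90 to 3.65 against 6.43 to 7.02 and that of the endothelial list 3.10 to 4.94 against 4.84 to 4.94. A sum follows its brightest member, and on the normals Uchl1 and Fabp4 alone came near the nerve and adipocyte sums. The median difference was -0.01 for the nerve list and 1.34 for the adipocyte list. On the normals only 3 to 5 of the 8 adipocyte genes were well above background, and 4 on het 2 and on het 3. Of the 10 nerve genes 6 were on het 2 and 7 on het 3. The higher floor of these 2 arrays enters both medians, which therefore cannot show whether a list fell as a whole. Genes in this paragraph that were not called were picked after their values were seen.

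Most hedgehog and BMP signalling genes that were called fell. In the bladder, basal cells send Sonic hedgehog to the stroma, which answers through Gli1 and with BMP ligands that act back on the epithelium. Of 15 genes, 8 were called lower and 3 higher, with a median of -2.40, and leaving out any 1 of the 6 arrays also gave 8 lower. The ligand Shh (picked after its values were seen) read -0.35, -5.11 and -4.32 against 3.61, 3.84 and 3.60 and was well above background on het 1 alone (difference -6.94, adjusted p = 0.00162). Its target Gli1 fell from 2.90, 1.75 and 2.43 to -2.49, -4.69 and -3.31 (difference -5.86, SE 0.72, adjusted p = 3.78e-05), above background on 2 het arrays. Hhip, a decoy receptor that Shh induces, fell by 7.61 (adjusted p = 0.000413), with 1 het array above background. The ligands Bmp4 (-4.37, adjusted p = 0.00038) and Bmp5 (-5.33, adjusted p = 5.47e-05) fell as well, Bmp5 with 1 het array above background. Bmp4 was even across the het arrays, at 0.14, 0.29 and -0.61 against 4.60, 3.91 and 4.42. Grem1, a secreted BMP antagonist, went the other way and was at least 25.1-fold higher (adjusted p = 7.4e-05). The other calls upward were Gli3 (1.35) and the hedgehog transducer gene Smo (0.81), both picked after their values were seen, and the count upward was 1 or 2 in 5 of the 6 fits that left out an array.

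Wnt genes were called lower in 7 of 21 cases and higher in 3 (13.5% and 17.5% over all genes), with a median of -0.61. The higher count was thus near the share of all genes. The ligand Wnt2 fell from 4.29, 4.07 and 3.88 to 1.03, -0.50 and 0.36 (difference -3.78, adjusted p = 0.000847) and the antagonist Dkk2 fell by 2.89 (adjusted p = 0.0004). The ligand Wnt10a rose from -0.29, 0.35 and -0.42 to 3.49, 3.51 and 4.63 (difference 4.0, adjusted p = 0.000187), and Wnt7a was at least 19.9-fold higher (adjusted p = 4.46e-05). Wif1, a secreted Wnt inhibitor (2.47, adjusted p = 0.049), was the third call upward, above background on 2 arrays of each group. Axin2, a common readout of canonical signalling (picked after its values were seen, as Wif1 was), was not called (difference -1.55, adjusted p = 0.0565) and was above background on 1 het array.

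In the EGF family all calls were ligands. Of 11 genes, 4 were higher and 1, Egf itself (-2.76, adjusted p = 0.0465), lower, with a median of 1.11. The Egf call was lost in each of the 6 fits that left out an array. Areg, amphiregulin, rose from -1.74, -2.97 and -1.33 to 2.09, 2.64 and 2.47 (difference 4.42, adjusted p = 0.000532). Hbegf (2.78, adjusted p = 0.0035) and Ereg (2.87, adjusted p = 0.00496) rose too, while the call of Nrg1 (1.91, adjusted p = 0.046) was lost when any normal array, het 2 or het 3 was left out. The receptors Egfr (1.11, adjusted p = 0.0571) and Erbb2 (0.31, adjusted p = 0.475), picked after their values were seen as Egf was, were not called. Ligands and receptors were not tested against each other.

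Enzymes that handle foreign compounds were lower in 11 of 25 cases and higher in 1, with a median of -1.06. Cyp4f15, a fatty acid hydroxylase, had the largest estimated log2 decrease of all genes. It read 3.94, 4.16 and 4.06 on the normals and -4.92, -4.73 and -5.97 on the het arrays, above background on 1 of these (difference -9.26, SE 1.02, adjusted p = 1.53e-05). Its rank rests on readings of het 2 and het 3 below their dimmest measurable levels. Gstm1, a glutathione transferase, fell from 8.19, 8.40 and 8.11 to 3.17, 0.87 and 3.38 (difference -5.76, adjusted p = 0.000196). Cyp1a1, induced through the aryl hydrocarbon receptor, fell by 6.82 (adjusted p = 0.000161) and the monooxygenase Fmo1 by 4.98 (adjusted p = 3.1e-05), each above background on 1 het array. NRF2 targets did not move as a block: Nqo1 was lower (-3.72, adjusted p = 0.0022), while Hmox1 (0.12), Txnrd1 (-0.074; other probe 1.75) and Gclm (0.35) were not called. The call that went up was Cyp2b10, at least 63.6-fold (other probe 3.36 in log2). The last 5 genes were picked after their values were seen. Leaving out normal 2 or normal 3 gave 7 lower calls. The core GCGTG of the aryl hydrocarbon receptor site was in 12 of 24 promoters of the list (50%), against 28.2% of all, but also in 60.7% of the cell cycle promoters.

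Transporters were mostly lower, with 9 of 14 called lower, 3 higher and a median of -1.89. Slc47a1, an exporter of organic cations, and Scnn1g, a subunit of the epithelial sodium channel, were at least 67.8-fold and at least 68-fold lower, from 1.68, 1.92 and 2.0 and 1.65, 2.19 and 1.79 on the normals. Abcb1a, a multidrug exporter, fell by 3.05 (adjusted p = 0.000617; 2 het arrays above background), whereas Abcc1, another drug exporter, rose by 2.47 (adjusted p = 0.00163). The other calls upward were Scnn1a (2.15), another subunit of that channel, and Abcb1b (1.37), a near copy of Abcb1a, both picked after their values were seen. In the retinoid list 2 of 14 rose and 2 fell. Stra6, the retinol importer, rose by 4.63 (adjusted p = 0.000399) and Aldh1a3, which makes retinoic acid, rose by 5.08 (adjusted p = 0.000613). Rbp4, the retinol carrier, fell from 4.17, 3.94 and 3.94 to -1.37, -1.83 and -2.90 (difference -6.05, adjusted p = 0.00247). Aldh1a2, the other main retinoic acid enzyme here, fell by 2.92 (adjusted p = 0.0178), a call lost without normal 1 or het 2.

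Glycolysis genes rose in 12 of 19 cases, none fell, and the median was 1.60. Pgk1, phosphoglycerate kinase, went from 5.35, 5.45 and 5.07 to 7.44, 7.77 and 7.72 (difference 2.36, SE 0.40, adjusted p = 0.00048). Eno1, enolase, differed by 2.28 (adjusted p = 0.000303; other probe 0.97), Pfkp, a phosphofructokinase, by 2.24 (adjusted p = 0.000469) and Ldha, lactate dehydrogenase, by 1.84 (adjusted p = 0.000729; other probe 3.15). The het arrays lay close together for these genes, and the count ran from 8 to 10 when 1 array was left out. Genes of epithelial and mesenchymal state gave 3 lower calls (Snai1, Vim, Zeb1) and 1 higher (Esrp1) of 13. Each of these 4 lost its call when any normal array or het 2 was left out, and Snai1, Vim and Zeb1 also without het 3. Cdh1, E-cadherin (picked after its values were seen), read 3.92, 3.82 and 3.61 against 4.04, 3.80 and 3.65.

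Beyond these lists, the largest increases included 3 genes of surface or barrier proteins. Msln, mesothelin, read 5.48, 6.06 and 5.13 and was at least 1977-fold higher (adjusted p = 6.89e-08). Gabrp, a GABA receptor subunit of epithelia, was at least 548-fold higher (adjusted p = 2.35e-06) and Cldn3, a tight junction claudin, at least 434-fold higher (adjusted p = 1.09e-07). Among the largest decreases, Wfdc15b, of a family of protease inhibitors, was at least 264-fold lower (adjusted p = 1.53e-05) and Fam183b at least 48.1-fold lower (adjusted p = 3.16e-05). Car3, a carbonic anhydrase, fell from 4.90, 4.14 and 4.55 to -1.92, -4.54 and -5.03 (difference -8.36, adjusted p = 0.000833). Itga11, a collagen-binding integrin of fibroblasts, fell by 7.58 (adjusted p = 0.000262) and Fbp1, of gluconeogenesis, by 7.55 (adjusted p = 0.000206). Above background were 1 het array for Car3 and Fbp1 and 2 for Itga11. Fmo5, a monooxygenase, was above background on all 6 arrays and fell from 7.01, 7.29 and 7.01 to 0.73, -1.04 and -0.98 (difference -7.53, adjusted p = 4.83e-06).

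The het arrays differed far more among themselves than the normal arrays did. Over the 12288 genes well above background on all 6 arrays, the median SD was 0.39 among het arrays and 0.18 among normal arrays, and 81.7% of the genes had the larger SD among the het arrays. Het 1 and het 2, which share an animal code, were the least alike: Spearman correlation across genes 0.936, with 2899 genes over 2-fold apart. Het 1 and het 3 gave 0.965 and 1475, and het 2 and het 3 gave 0.954 and 2087. Pairs of normal arrays gave 0.992 to 0.996 and 78 to 233 genes. The scanner and slide of het 1 were those of no other het array, so part of its distance cannot be told apart from them. The normal arrays shared a slide and a scanner model, as het 2 and het 3 did. Part of the larger spread among the het arrays therefore cannot be told apart from slide and scanner either. Genes are not independent replicates in these correlations. Single het arrays set against the normal mean differed by gene group. The luminal median was -1.19 on het 1, -2.12 on het 2 and -1.61 on het 3, and the fibroblast median was -1.13, -3.20 and -1.88 in that order. Interferon genes stood at 2.44, 3.14 and 3.69, cell cycle genes at 2.79, 3.32 and 3.69, and antigen presentation genes at -0.16, 1.58 and 0.93. Hedgehog and BMP genes were nearly level, at -2.83, -2.86 and -2.36.

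The 6 genes that varied most among the het arrays fell into a few patterns. Hbb-b2, an adult beta globin, was at 5.02, -2.67 and 2.46 against 1.20, 0.72 and 0.37 on the normals, and Hbb-bt at 6.78, 0.076 and 4.77 against 3.54, 2.95 and 2.57. Both were highest on het 1 and below all normals on het 2, and neither was called (adjusted p = 0.772 and 0.756). Ubd, an interferon- and TNF-induced ubiquitin-like protein, read -1.86, 3.94 and -2.75, and Ido1, a tryptophan-degrading enzyme induced by interferon gamma, read -2.97, 3.49 and -0.96. For these it was het 2 that stood out above. Ubd was at least 36-fold higher than on the normals (adjusted p = 0.0157), a call lost without het 2 (adjusted p = 0.0979), and Ido1 was not called. Serpina3f, a protease inhibitor, was high on het 2 and het 3 but not on het 1 (-2.85, 3.26 and 2.53), and its call was lost when any array except het 1 was left out. Prl2c5, of the prolactin family, read 1.08, -2.25 and 4.14 and was not well above background on the normals.

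Among other genes that interferon gamma induces, Cd74, Ciita and Gbp2 had their het arrays in the same order as Ido1. Ubd did not, with het 3 lowest. Cd74, the invariant chain of MHC class II, stood at 1.52, 6.31 and 3.28, with the normals at 3.14, 3.79 and 3.37. Ciita, the class II master regulator, stood at -2.53, 1.53 and -0.91, with the normals at -0.45, 0.092 and -0.21. Het 1 lay below all normals and het 2 above all normals for both. Gbp2, a guanylate-binding protein induced by interferon gamma, read 0.61, 4.20 and 2.18. It was above all normals (0.55, 0.87 and 0.59) on het 2 and het 3 but not on het 1. The differences between group means were 0.27, -0.45 and 1.66, and none was called. These 3 were picked after their values were seen, and with 1 array in each position no test was made.

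**Figure D4:**
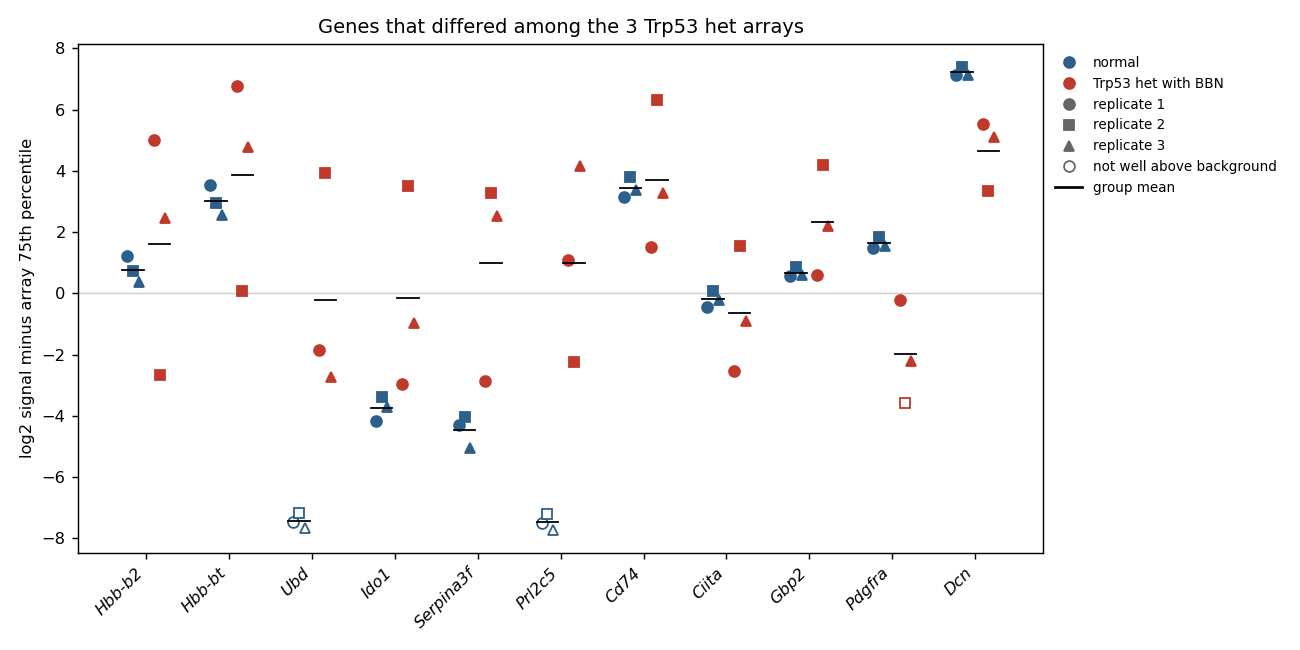
Levels of 11 genes on each array, in log2 signal minus the array's 75th percentile, with symbols and colours for group, replicate number and background as given in the key. Het 2 (square) is lowest for the globins and for Pdgfra and Dcn and highest for Ubd, Ido1, Cd74, Ciita and Gbp2.

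Set beside BBN-treated bladders with a Cre driver but no Trp53 mutation (2 Krt5-Cre and 2 Upk2-Cre arrays), the het bladders gave 0 of 17407 calls (0%) in limma, with 841 genes at an unadjusted p under 0.05 and a smallest adjusted p of 0.226. Both Upk2-Cre arrays share an animal code in the labels, as het 1 and het 2 do, so they may not be separate animals. With arrays that share a code averaged, limma also gave 0 calls. In simulated data of this size, with 200 genes changed, the fit recovered 55.5% of planted 4-fold changes and none of 2-fold. Differences of such sizes could thus go uncalled. With the scanner as a block 17 genes were called (2 higher, 15 lower), and 15 in a fit of only the 11 arrays of the normals' scanner model. That fit holds 1 het array (het 1), Krt5-Cre 1 and Upk2-Cre 1, which are assumed to vary like the arrays of the other groups. The genes of smallest p are given as values. Col10a1, a collagen of hypertrophic cartilage, read -0.64, -2.07 and 0.35 on the het arrays and was not well above background on any of the 4 driver control arrays (difference 4.85, adjusted p = 0.226). Kcnq1, a potassium channel, read 1.63, 0.82 and 1.40 against -1.89 and -3.42 with Krt5-Cre and -1.27 and -0.66 with Upk2-Cre (difference 3.09, adjusted p = 0.293). For Hs3st6, a heparan sulfate sulfotransferase, the difference was -3.15 (adjusted p = 0.226) and for Mfap3l -1.39 (adjusted p = 0.293). Xaf1, an interferon-induced gene, was low on the Krt5-Cre arrays (-4.35 and -4.0) and not on the Upk2-Cre arrays (2.56 and 0.77), with a difference of 4.24 (adjusted p = 0.293). Against the normals its other probe gave 1.82 where this probe gave 8.76.

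In that comparison the squamous list had a median of -1.58, against 0.03 for all genes, and 9 of its 31 members had an unadjusted p under 0.05. The smooth muscle list had a median of -1.45 with 5 of 14 members at such a p, and the skeletal muscle list a median of -1.16 with 0 of 8. The part of tissue content in the squamous difference was not tested. Lor, loricrin of the cornified envelope (picked after its values were seen), read 2.03, 2.36 and 2.04 on the het arrays, 4.41 and 6.66 with Krt5-Cre and 5.92 and 7.65 with Upk2-Cre, while the normals stood at -2.97, -3.31 and -3.18. The het arrays lay below all driver controls and above all normals (difference from the controls -4.02, adjusted p = 0.707). Cyp1b1, another dioxin-inducible cytochrome P450 picked in the same way, read -0.35, -1.65 and -1.90 on the het arrays, 2.87 and 2.67 and 1.09 and 2.74 on the controls and 2.37, 2.88 and 2.51 on the normals. Here the controls overlapped the normals and the het arrays did not (difference from the controls -3.65, adjusted p = 0.293). The cell cycle list had a median of -0.12. The controls also had tamoxifen, which the het mice did not.

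Against the mean of all 6 other BBN groups (16 arrays), again 0 of 17407 genes (0%) were called by limma, with 794 at an unadjusted p under 0.05 and a smallest adjusted p of 0.987. The fit recovered 65% of planted 4-fold changes there. The gene of smallest p was Gpr25, an orphan G protein-coupled receptor, at -1.04, 0.79 and 0.48 on the het arrays (difference 2.44, unadjusted p = 0.000167, adjusted p = 0.987). Eml3 (0.98), Reep6 (0.88), Hes6 (1.05) and Rab30 (-1.33) followed. An absent call does not show that the groups were alike.

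**Figure D5:**
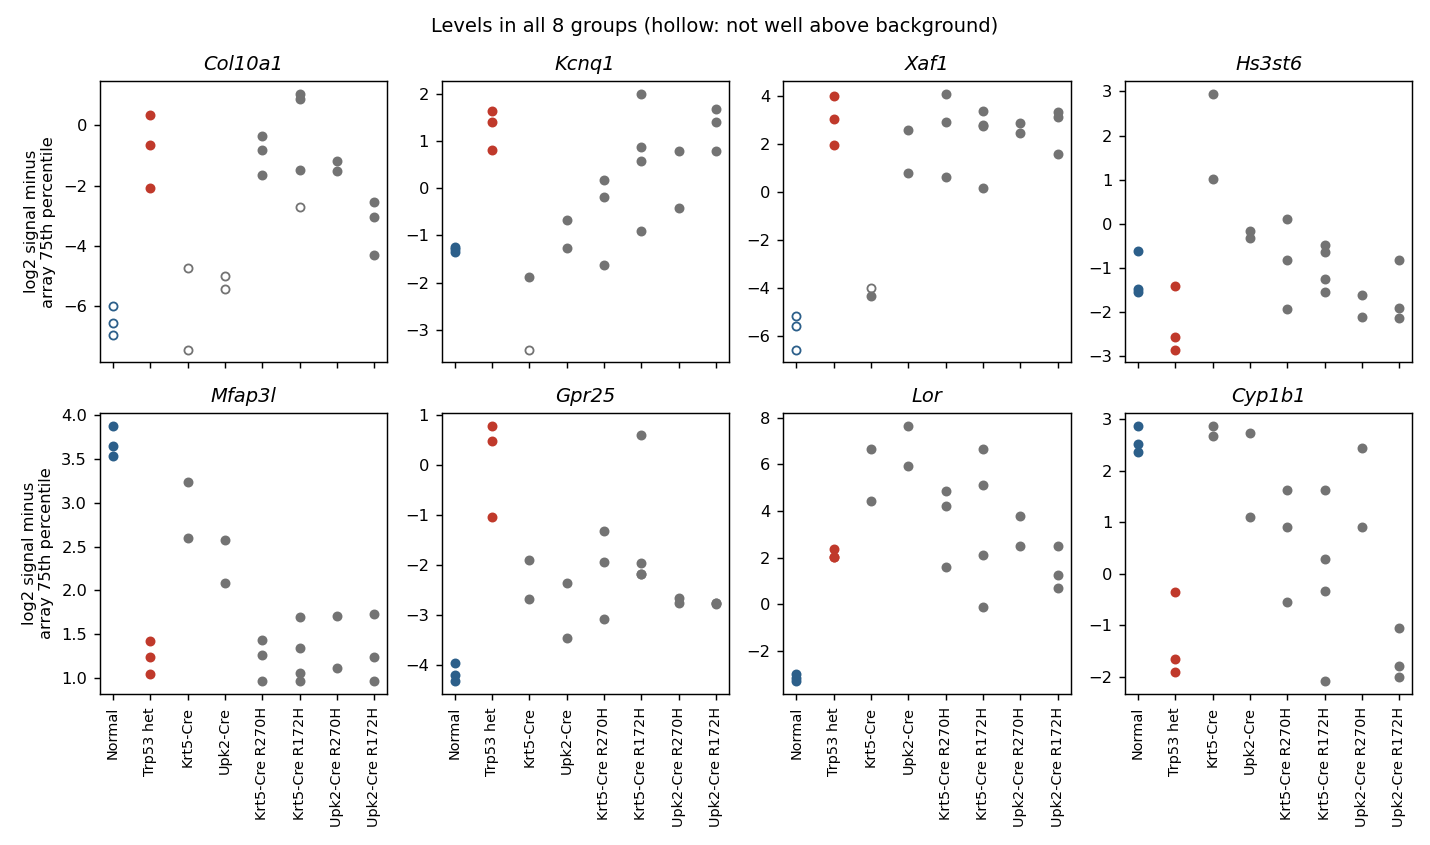
Levels of 8 genes on all 22 arrays by group, in log2 signal minus the array's 75th percentile, with the normals in blue, Trp53 het in red, the other BBN groups in grey and hollow points not well above background. Col10a1 and Kcnq1 are low in the normals and in both driver-only controls, and Lor is higher in the driver-only controls than in the het bladders.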

How the data were processed

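RNA was labelled with 1 dye and read on 22 Agilent arrays, per the labels. The extraction protocol describes whole bladders, while the titles of the normals name urothelium. The deposited scanner files hold spot intensity after background subtraction and spatial detrending within each array by Feature Extraction 11.0.1.1, with no scaling between arrays, per the file headers (9.1 in the submitters' processing notes). The deposited table of the series holds log2 values as processed by the authors (highest value 18.8 in every column, column medians 7.94 to 9.60), with limma named in the submitters' processing notes. It follows the scanner signals in rank (lowest Spearman correlation within an array 1.00), and no source used here says how else it was made.

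Outlier spots and control spots were left out, and log2 intensity minus the 75th percentile of each array was taken. Probes were named through RefSeq accessions: 32994 of 56605 probes had 1 gene symbol, 23611 had none and none had several. The brightest probe of each gene, by its mean level over all 22 arrays, was kept. Most of these arrays came from BBN-treated mice, so probes that read high under BBN were favoured. With the mean over probes, 3143 genes were called higher and 2182 lower in het against normal. Genes passed to the fit if 2 or more of the 22 arrays had them well above background and none had a flagged value (17407, with 21 more dropped for flagged values). limma 3.58.1 in R 4.3.3 fitted 8 group means over all 22 arrays with moderated variances, and p-values were adjusted over all genes tested. No replicate number pairs the groups. The array design is built on mm9, and promoter sequences and their coordinates come from RefSeq on GRCm38.p6, so no probe was placed in the genome.

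Named genes were 7 fixed ones, the 12 largest called increases and decreases measured on all 3 arrays of the higher group and not overlapping, up to 4 called members of smallest p per list, 5 genes of smallest p in each comparison with other BBN groups and the 6 of largest SD among het arrays. Some genes that this rule names are not reported here. Members, lists and rules were chosen with earlier results of these data known. On simulated data, in which 200 genes were changed, het against normal recovered 0.5%, 54.5% and 93.5% of planted log2 changes of 1, 2 and 4. With so few changed genes the adjustment is stricter than in the data, where 5401 genes were called. These shares are therefore not those of the data. Alternatives covered normalization, background correction, filters, probes, scanner, slide, sex, the shared animal code, the replicate block and leaving out each array. Under the shared animal code het 1 and het 2 were averaged, and so were both Upk2-Cre arrays, which share another code. For arrays their number limits the precision.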

Additional observations from a re-analysis of the deposited data

How the results depend on the processing

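With 3 arrays a group, many small differences can go uncalled, although some calls were of less than 2-fold. Signal over background limited low genes on het 2 and het 3. The 5401 calls between het and normal bladders became 3596 with labelled sex as a covariate, 3566 with the scanner as a block and 3396 with genes well above background on all 22 arrays only; the last setting tests 11105 genes, and for the others the cause was not tested. They ran from 3374 (without het 2) to 5552 (without het 1) when 1 array was left out. The remaining settings gave 3655 to 6767 calls, among them 4363 with the arrays of the shared animal code averaged, 4518 with Xist minus Y-linked genes as a covariate, 3655 with genes well above background on all 6 arrays and 3678 with only the scanner model of the normals, the last 3 chosen after seeing the data. The last fit holds 1 het array, assumed to vary like the other groups. Same-numbered arrays did not deviate together (correlations 0.04, -0.13 and -0.12), and with the replicate block 5446 genes were called. Of the 118 named genes called, 88 were called in every setting that tested them. The call was lost for 17 with labelled sex as a covariate, 14 with the scanner as a block and 13 with the slide as a block. With the arrays of the shared animal code averaged, 9 lost it. Which genes these were is given above only in part. The globins changed sign without het 1, Hbb-b2 to -0.87 (2.98 without het 2) and Hbb-bt to -0.60 (2.75 without het 2).

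Against the driver controls the 0 calls became 15 with only the scanner model of the normals (chosen after seeing the data, 1 het array), 1 with quantile normalization and 17 with the scanner as a block, and ran from 0 to 1 when 1 array was left out (1 each without Krt5-Cre 2 or Upk2-Cre 2). The cause was not tested. Against all other BBN groups limma gave 0 calls in every setting run, with 794 genes at an unadjusted p under 0.05.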
